A study of Mus musculus with 4 samples.

Results

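The cell cycle genes examined here are 34 genes taken by symbol from the 32287 features counted. They comprise 11 replication genes (Mcm2, Mcm3, Mcm4, Mcm5, Mcm6, Mcm7, Pcna, Rrm1, Rrm2, Tyms and Pclaf), 21 mitosis genes (Mki67, Top2a, Ccnb1, Ccnb2, Ccna2, Cdk1, Birc5, Ube2c, Cdc20, Plk1, Aurka, Aurkb, Bub1, Bub1b, Tpx2, Cenpe, Cenpf, Cenpa, Kif11, Kif23 and Nusap1), and Stmn1 and Hmgb2, which follow proliferation without belonging to either step. All 34 had at least 1 UMI on every capture area. Their transcripts were counted in sections of popliteal lymph nodes (PLNs), the nodes that drain the ankle and foot, from male C57BL/6 mice. TNF-Tg mice carry a human TNF transgene and develop an inflammatory-erosive arthritis. Sections lay on 4 Visium capture areas, arrays of barcoded spots on which each captured RNA molecule is counted once by its unique molecular identifier (UMI).

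The WT area held 10 PLNs from 5 wild-type mice aged 5.5 months. The Early area held 6 PLNs from 3 TNF-Tg mice with Early arthritis, also aged 5.5 months. The Advanced 1 and Advanced 2 areas each held 6 PLNs from 3 TNF-Tg mice with Advanced arthritis, aged 8.5 to 9 months. Advanced nodes therefore differed from Early nodes in age as well as in stage, and from WT nodes in age and transgene, and these cannot be told apart. Nodes of several mice shared an area and spots were not assigned to single mice, so the area was the replicate (n = 1 for WT, 1 for Early and 2 for Advanced). The areas had 833, 1489, 2015 and 1782 spots and 1808678, 5180493, 3378219 and 3198238 UMIs for WT, Early, Advanced 1 and Advanced 2. Lymphocyte transcripts were present on all areas: 14 B-cell genes together took 35.7 to 62.7 of every 10000 UMIs, and 18 T-cell genes 11.8 to 17.9. The human transgene itself was not analysed here.

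A cell that divides first copies its DNA and then separates the copies. Replication genes supply this first step, with the Mcm2 to Mcm7 proteins as the helicase that opens the DNA, Pcna as the clamp that holds the polymerase, and Rrm1, Rrm2 and Tyms as makers of DNA precursors. Mitosis genes act later: Ccnb1 and Cdk1 form the kinase that starts mitosis, Top2a disentangles the chromosomes, Birc5 and Aurkb guide their segregation, and Ube2c and Cdc20 help destroy cyclins at the end. In lymph nodes, division is best known in germinal centres, where B cells expand after meeting antigen, in T cells activated in the paracortex, and in plasmablasts, the dividing precursors of plasma cells.

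Both sets of genes are known for distinct promoter elements, and the RefSeq promoters of the members were searched for them to show this difference. Promoters were taken as 250 bases before to 50 bases after the start site on GRCm38.p6 and were found for 29 of the 34 genes. The elements were the CHR (TTTGAA), the CCAAT box (CCAAT), and E2F sites (TTTCCCGC, TTTGGCGC, TTTCGCGC or TTTGCCGC), each on both strands, where neighbouring E2F matches on opposite strands may overlap. A CHR was found in 13 of 18 mitosis genes (72.2%) and in 1 of 10 replication genes (10.0%), against 20.2% of all 27025 genes with a promoter. An E2F site was found in 5 of 10 replication genes (50%) and in 1 of 18 mitosis genes (5.56%), against 2.61% of all genes. CCAAT boxes were common in both sets, in 16 of 18 mitosis genes (88.9%) and 9 of 10 replication genes (90.0%), against 41.1% of all genes. These matches describe letters in a window and not binding.

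Promoters of 5 members are shown in lower case with the matched elements in capitals. Ccnb1 and Hmgb2 are shown because each passed the test in 2 of the comparisons below. Pcna and Mcm7 stand for the members that passed in 1, picked by their smaller p in replication-rich spots, which they helped to choose. Mki67, the proliferation marker read as Ki-67, was added after its values were seen.
Ccnb1 (chr13:100786437-100786736, minus strand): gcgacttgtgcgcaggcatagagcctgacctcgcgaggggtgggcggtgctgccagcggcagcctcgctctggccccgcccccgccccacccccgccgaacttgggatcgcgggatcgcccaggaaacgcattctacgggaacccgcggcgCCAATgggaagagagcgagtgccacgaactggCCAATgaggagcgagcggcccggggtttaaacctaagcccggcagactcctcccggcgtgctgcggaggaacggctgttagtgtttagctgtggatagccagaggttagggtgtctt
Hmgb2 (chr8:57511593-57511892, plus strand): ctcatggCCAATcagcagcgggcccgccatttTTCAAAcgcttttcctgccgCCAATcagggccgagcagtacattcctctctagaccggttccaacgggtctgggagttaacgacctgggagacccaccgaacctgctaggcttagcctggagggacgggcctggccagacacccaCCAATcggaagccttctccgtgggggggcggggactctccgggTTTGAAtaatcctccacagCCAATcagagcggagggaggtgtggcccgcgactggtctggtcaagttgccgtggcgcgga
Pcna (chr2:132253131-132253430, minus strand): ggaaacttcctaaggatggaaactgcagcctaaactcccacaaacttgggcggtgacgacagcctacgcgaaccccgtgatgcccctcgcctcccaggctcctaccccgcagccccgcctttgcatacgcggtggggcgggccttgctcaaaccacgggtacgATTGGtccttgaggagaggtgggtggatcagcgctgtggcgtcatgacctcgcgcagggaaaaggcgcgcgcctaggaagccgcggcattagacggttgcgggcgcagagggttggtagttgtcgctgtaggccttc
Mcm7 (chr5:138171834-138172133, minus strand): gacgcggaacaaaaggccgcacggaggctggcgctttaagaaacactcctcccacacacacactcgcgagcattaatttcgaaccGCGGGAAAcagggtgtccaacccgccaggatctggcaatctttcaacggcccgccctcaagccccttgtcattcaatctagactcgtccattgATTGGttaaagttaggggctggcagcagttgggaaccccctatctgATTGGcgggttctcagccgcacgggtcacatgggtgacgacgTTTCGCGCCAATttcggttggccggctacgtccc
Mki67 (chr7:135716330-135716629, minus strand): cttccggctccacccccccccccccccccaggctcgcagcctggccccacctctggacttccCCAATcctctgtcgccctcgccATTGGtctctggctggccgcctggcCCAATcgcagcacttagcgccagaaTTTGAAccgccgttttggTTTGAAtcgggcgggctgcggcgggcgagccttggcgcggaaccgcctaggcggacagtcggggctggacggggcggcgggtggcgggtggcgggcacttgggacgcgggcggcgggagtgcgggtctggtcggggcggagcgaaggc
In the GENCODE annotation of GRCm38, Mki67 (ENSMUSG00000031004) spans chr7:135689784-135716361, Ccnb1 (ENSMUSG00000041431) chr13:100778650-100786570, Hmgb2 (ENSMUSG00000054717) chr8:57511907-57515999, Pcna (ENSMUSG00000027342) chr2:132249162-132253314 and Mcm7 (ENSMUSG00000029730) chr5:138164583-138172422, with start sites that can differ from those of RefSeq. Mki67 has 2 CHR and 3 CCAAT matches, and Hmgb2 has 2 and 4. Mcm7 has 2 E2F and 3 CCAAT matches and no CHR in the promoter shown. The other RefSeq promoter of Mcm7 (chr5:138171217-138171516) has 1 CCAAT match and neither an E2F site nor a CHR. Only CCAAT matches were found for Ccnb1 (2) and Pcna (1).

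Cell cycle transcripts were lowest on the Early area. The 34 genes together took 10.2 of every 10000 UMIs on the WT area (95% Poisson interval 9.78 to 10.7), 7.47 on the Early area (7.24 to 7.71), 10.3 on Advanced 1 (9.95 to 10.6) and 10.1 on Advanced 2 (9.71 to 10.4). WT and both Advanced areas overlapped, and the Early interval lay below the other 3. Intervals here and below cover counting error only, and not the difference between mice or sections. The Advanced mean was 1.36 times the Early level and 0.993 times the WT level. Mitosis genes differed more than replication genes: the Advanced mean was 1.46 times the Early level for mitosis genes, 1.25 times for replication genes and 1.48 times for Stmn1 and Hmgb2. How many cells were dividing and how much RNA each of them held cannot be told apart in such sums.

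**Figure D1:**
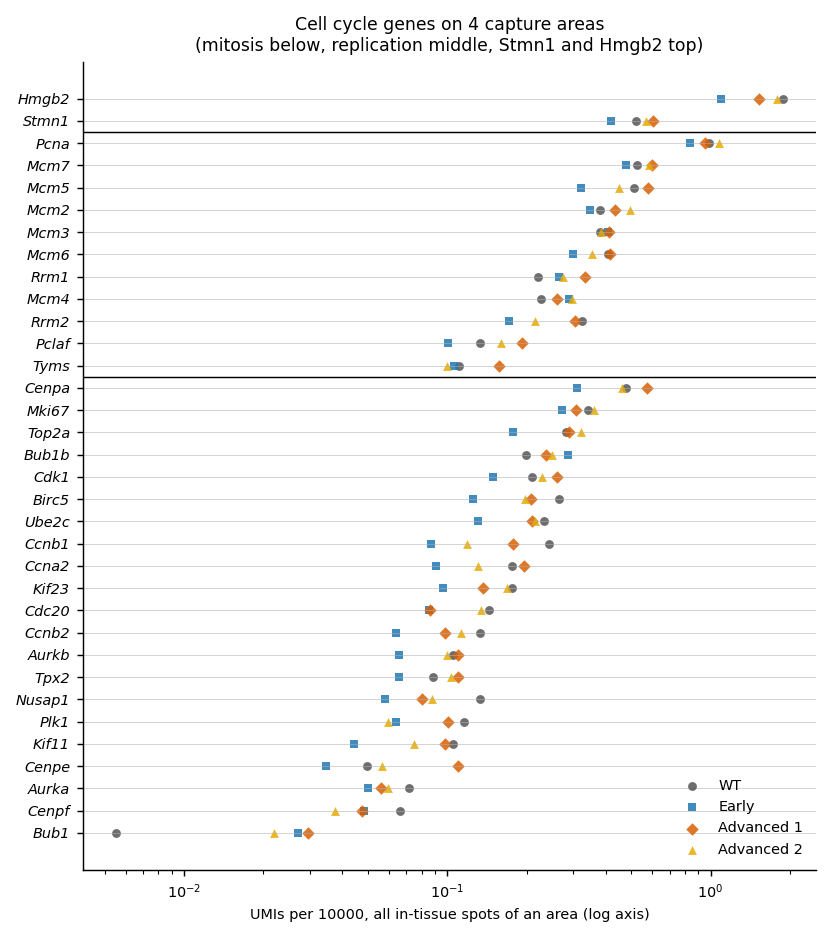
Level of each of the 34 cell cycle genes on each capture area, in UMIs per 10000 over all in-tissue spots on a log axis, 1 symbol per area. The Early symbol is the leftmost of the 4 for 26 genes, and for 17 of the 21 mitosis genes.

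The order held across most members. Early was the lowest of the 4 areas for 26 of 34 genes, namely 7 of 11 replication genes, 17 of 21 mitosis genes, and Stmn1 and Hmgb2. The share of all genes that were lowest on Early was not counted, so this count has no background. Against the 2 Advanced areas alone, 27 of 34 genes were lower on Early than on both and 2 were higher than on both, where 43.4% and 24.4% of all 13102 genes tested were. Against the same Advanced areas, 13 genes were lower on WT than on both and 13 higher than on both, where 48.3% and 25.3% of all genes were. The Advanced areas served in both comparisons.

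Among mitosis genes, Top2a took 0.282 of every 10000 UMIs on WT, 0.178 on Early, 0.290 on Advanced 1 and 0.322 on Advanced 2. Birc5, the survivin subunit of the chromosomal passenger complex, took 0.265, 0.125, 0.207 and 0.197 on the same areas. Ube2c, a ubiquitin-conjugating enzyme of the anaphase-promoting complex, took 0.232, 0.131, 0.210 and 0.216. In each of these 3 genes the Early value was the lowest. Its Poisson interval overlapped that of WT for Top2a, of Advanced 2 for Birc5 and of Advanced 1 for Ube2c. Mki67 was more even, with 0.343, 0.272, 0.308 and 0.360. Ccnb1 took 0.243, 0.0869, 0.178 and 0.119, and was highest on WT.

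Hmgb2, a chromatin protein abundant in dividing cells, took 1.89 of every 10000 UMIs on WT, 1.1 on Early, 1.52 on Advanced 1 and 1.79 on Advanced 2. Stmn1, which destabilises microtubules, took 0.520, 0.417, 0.607 and 0.569. Both were again lowest on Early. Replication genes were less uniform. Pcna took 0.990, 0.832, 0.953 and 1.08 of every 10000 UMIs, while Tyms took 0.111, 0.106, 0.157 and 0.100 and did not separate Early from the rest. The helicase subunit Mcm4 (0.227, 0.290, 0.260 and 0.297) and Rrm1 (0.221, 0.266, 0.334 and 0.275) were lowest on WT. Bub1b, a spindle checkpoint kinase, went the other way from most members and was highest on Early (0.199, 0.288, 0.237 and 0.250).

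No single member passed the test of Advanced against Early. Of 33 genes tested by quasi-likelihood in edgeR, with p-values adjusted over all genes, 0 had an adjusted p below 0.05, where 0.496% of all genes were called higher and 0.664% lower. An unadjusted p below 0.05 was reached by 8 members in edgeR and by 0 in DESeq2. Over all genes tested in edgeR it was reached by 1007 of 13102. The log2 difference was positive for 29 of the 33 genes and had a median of 0.51, against 0.01 over all genes tested. The members of smallest p were the centromere histone Cenpa (log2 difference 0.65, standard error 0.24, adjusted p = 0.232), Hmgb2 (0.51, standard error 0.19, adjusted p = 0.252), Mcm5 (0.60, standard error 0.24, adjusted p = 0.323) and Top2a (0.71, standard error 0.29, adjusted p = 0.372); all 4 were named after their values were seen. Of other cell cycle genes on the same test, 0 of 24 replication and 0 of 40 mitosis genes passed, with 19 and 28 positive log2 differences and medians of 0.27 and 0.21. This fit had 1 residual degree of freedom, from the 2 Advanced areas, and WT and Early were assumed to vary like them. Against WT, 0 of 33 members passed in either direction (0.733% of all genes were called higher and 1.34% lower), and the median log2 difference was -0.11. An unadjusted p below 0.05 was reached by 1 member in edgeR and 0 in DESeq2, and by 1408 of all 13102 genes in edgeR. Ccnb1 was that member (log2 difference -0.82 ± 0.37 as standard error, adjusted p = 0.357 in edgeR). Early against WT, 1 area each, was not tested: 29 of 34 genes were lower on Early, and the summed level was 0.729 times that of WT. The share of all genes lower on Early than on WT was not counted.

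The makeup of the sections differed as well, with Early at one end. Per 10000 UMIs, the B-cell genes reached 62.7 for Early, 55.9 for Advanced 1, 47.9 for Advanced 2 and 35.7 for WT, and the T-cell genes 11.8, 13.8, 15.0 and 17.9 in this order, so that Early had the most B-cell and the least T-cell and plasma cell transcript. Macrophage genes were highest on Early as well (103 against 70.4 to 79.2 per 10000). Over the other 3 areas the summed mitosis level followed neither order (3.52 on Advanced 1, 3.30 on Advanced 2 and 3.62 on WT). The summed replication level followed the B-cell order over these areas (4.64, 4.39 and 4.22), but was lowest on Early (3.62). Stmn1 and Hmgb2 together followed the T-cell order, with 2.41 on WT, 2.36 on Advanced 2, 2.13 on Advanced 1 and 1.52 on Early. The part of the makeup in the Early values was not tested. Early was also the deepest area. When every spot of at least 1000 UMIs was thinned to 1000 UMIs, the summed level was 7.95 on Early against 10.7 on WT, 10.9 on Advanced 1 and 10.2 on Advanced 2. The share of such spots with at least 1 mitosis gene UMI was 21.8% on Early (exact 95% interval 18.6 to 25.3), 31.1% on WT (25.7 to 37.0), 29.7% on Advanced 1 (26.0 to 33.6) and 26.3% on Advanced 2 (22.9 to 30.0). Here the Early and Advanced 2 intervals overlapped. For replication genes the share was 31.6%, 38.5%, 38.2% and 34.1% in this order, and the Early interval overlapped all others. For any member it was 55.1%, 60.4%, 64.6% and 58.3%, and the Early interval lay below that of Advanced 1 only.

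Spots of at least 1000 UMIs were also split within each area into 4 bins of equal size by their share of B-cell, T-cell or plasma cell genes. Of these spots there were 273 on WT, 601 on Early, 579 on Advanced 1 and 604 on Advanced 2, and they held 89.9% to 96.5% of an area's UMIs. Early had the lowest summed level in all 4 bins of each of the 3 splits, which sorted the same spots. In the highest B-cell bin its Poisson interval (7.22 to 8.44) overlapped those of WT, Advanced 1 and Advanced 2. It overlapped that of WT in the lowest B-cell bin, the lowest T-cell bin and the T-cell bin next to it. Bins were ranked within an area and do not match in makeup between areas: the highest T-cell bin held 37.1 T-cell gene UMIs per 10000 on WT and 24.3 on Early, and the highest B-cell bin 80.6 and 120.3 B-cell gene UMIs. The gap between WT and Early varied with the bin. In the lowest bin by T-cell share the summed level was 6.73 on WT and 6.58 on Early, and in the highest 15.6 and 8.22. In the lowest bin by plasma cell share it was 8.99 and 6.6, and in the highest bin by B-cell share 8.66 and 7.81.

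**Figure D2:**
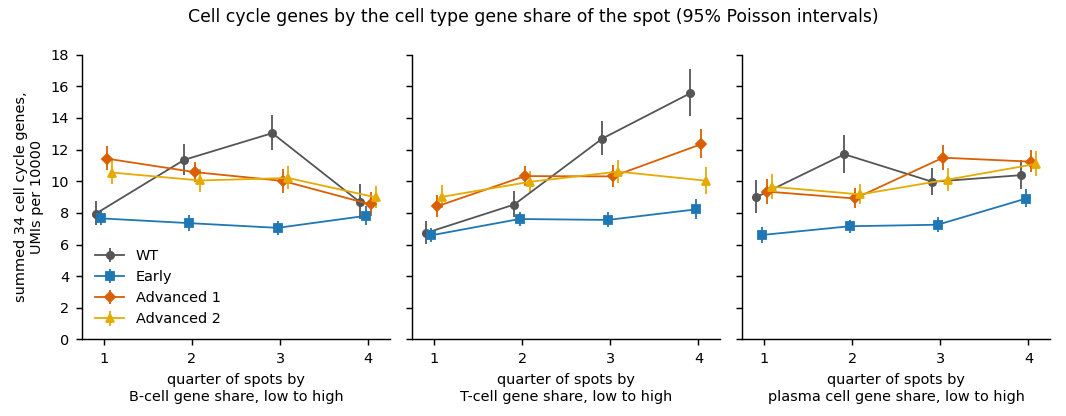
Summed level of the 34 cell cycle genes in UMIs per 10000 (vertical axis) in 4 bins of spots ordered by B-cell, T-cell or plasma cell gene share (horizontal axis), with 1 line per capture area and 95% Poisson intervals. Early is the lowest line throughout, with intervals that overlap those of other areas in some bins, and the WT line rises from 6.73 to 15.6 with T-cell share.

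Within the areas, 4 cell cycle genes were higher in plasma-cell-rich spots. The 25% of spots with the largest share of 11 plasma cell genes were compared with the other spots of the same area, with area as a block. Of 29 members tested, Mki67, Ccnb1, Top2a and Tyms rose and 0 fell, where edgeR called 2.97% of all genes higher and 2.15% lower. The log2 difference was positive for 26 of the 29 and had a median of 0.37, against 0.00 over all genes tested. The summed level was 10.4 ± 1.06 per 10000 in the rich spots and 9.18 ± 1.45 in the others (SD, n = 4 areas), and the ratio was 1.02 on WT, 1.26 on Early, 1.13 on Advanced 1 and 1.15 on Advanced 2.

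In plasma-cell-rich spots, Mki67 took 0.488, 0.482, 0.393 and 0.496 of every 10000 UMIs (areas in the order WT, Early, Advanced 1, Advanced 2, here and below), and 0.276, 0.216, 0.255 and 0.295 in the other spots. All 4 rich values were above all 4 others. The log2 difference of 1.01 ± 0.18 (standard error) had an adjusted p of 0.000289 in edgeR and was called in 10 of 10 alternative settings. Ccnb1 took 0.326, 0.180, 0.305 and 0.186 against 0.234, 0.0659, 0.118 and 0.103, higher in 4 of 4 areas (log2 difference 1.22, standard error 0.27, adjusted p = 0.00382 in edgeR). Top2a took 0.407, 0.303, 0.327 and 0.341 against 0.217, 0.134, 0.264 and 0.317 (log2 difference 0.75, standard error 0.21, adjusted p = 0.0304 in edgeR). The rise of Top2a was slight on Advanced 2 and, as a ratio, largest on Early. Tyms took 0.204, 0.208, 0.196 and 0.124 against 0.0836, 0.0761, 0.156 and 0.0938 (log2 difference 1.01, standard error 0.30, adjusted p = 0.0435 in edgeR), on 8 to 22 UMIs per area in the rich spots.

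The calls other than Mki67 depended on single areas. Without Early, Mki67 alone remained called, and the adjusted p in edgeR was 0.0721 for Ccnb1, 0.332 for Top2a and 0.412 for Tyms. Without WT it was 0.0804 for Top2a and 0.0991 for Tyms, and without Advanced 1 it was 0.0518 for Ccnb1. Birc5 (log2 difference 0.75), Ube2c (0.60), Pcna (0.33), Hmgb2 (0.27) and Stmn1 (0.24) did not pass the test in edgeR, with adjusted p between 0.0706 for Birc5 and 0.470 for Stmn1.

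**Figure D3:**
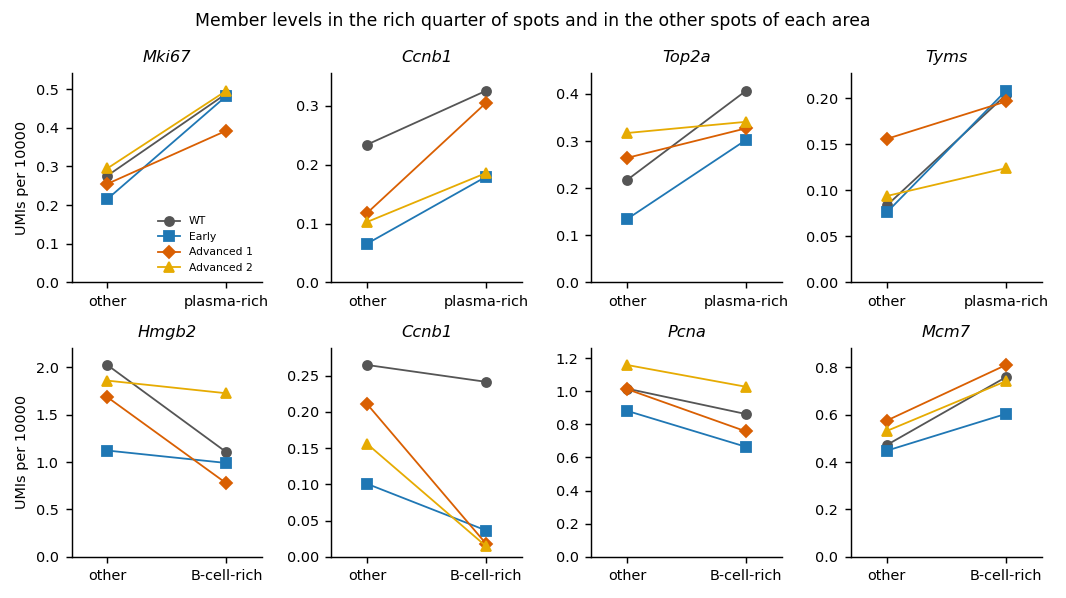
Levels of single members in UMIs per 10000 in the richest 25% of spots (right of each panel) and in the other spots (left), 1 line per capture area; top row plasma-cell-rich spots, bottom row B-cell-rich spots. Mki67 rises on all 4 lines, from 0.216 to 0.295 up to 0.393 to 0.496, and Ccnb1 falls to 0.0362 or below in B-cell-rich spots on 3 of 4 lines.

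Other transcripts moved with the plasma cell share. Of the B-cell genes 13 of 14 fell, while 5 of 6 neutrophil genes and 4 of 7 lymphatic endothelial genes rose. Of 5 capsule and collagen genes 4 rose, and of 9 macrophage genes 4 rose and 1 fell. The summed macrophage level was lower in plasma-cell-rich than in other spots on every area, only slightly so on WT. It was 81.6 against 82.4 on WT, 89.2 against 109.7 on Early, 54.8 against 83.7 on Advanced 1 and 66.7 against 75.3 on Advanced 2. The part of these genes in the result for plasma-cell-rich spots was not tested. Among 17 other replication genes and 24 other mitosis genes tested there, 0 passed in either direction, with 12 and 21 positive log2 differences. Of 13 genes of the cyclin, Cdk, E2f and Rb families, only the cyclin gene Ccnd2 passed (log2 difference 0.61, standard error 0.15, adjusted p = 0.00981 in edgeR). Btg1, an antiproliferative gene, fell by 0.36 in log2 (standard error 0.10, adjusted p = 0.0278 in edgeR).

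In B-cell-rich spots 4 members were lower and 1 was higher. Of 27 members tested, Hmgb2, Ccnb1, Pcna and Stmn1 fell and Mcm7 rose, where edgeR called 14.5% of all genes lower and 12.7% higher, so that the share of members called was near or below the background. The median log2 difference was -0.40 over the members and 0.01 over all genes, with 19 of 27 below 0. The 14 mitosis genes tested had a median of -0.46 with 1 called, and the 11 replication genes a median of -0.02. The summed level was 8.50 ± 0.493 in B-cell-rich spots and 9.71 ± 1.58 in the others (SD, n = 4 areas). Its ratio was below 1 on WT (0.820), Advanced 1 (0.803) and Advanced 2 (0.874), and above 1 on Early (1.06).

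Hmgb2 took 1.1, 0.990, 0.775 and 1.73 of every 10000 UMIs in B-cell-rich spots, against 2.02, 1.12, 1.69 and 1.86 in the other spots. It was lower in 4 of 4 areas, by a wide margin on WT and Advanced 1 only (log2 difference -0.58, standard error 0.14, adjusted p = 0.00184 in edgeR). Ccnb1 took 0.241, 0.0362, 0.0176 and 0.0143 against 0.265, 0.101, 0.211 and 0.156, on 7, 3, 1 and 1 UMIs in the B-cell-rich spots (log2 difference -1.75, standard error 0.45, adjusted p = 0.00282 in edgeR). WT nearly kept its level, and the other 3 areas fell to very few molecules. Both genes were called in 10 of 10 alternatives.

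Pcna took 0.862, 0.664, 0.757 and 1.03 in B-cell-rich spots against 1.02, 0.882, 1.01 and 1.16 (log2 difference -0.40, standard error 0.14, adjusted p = 0.0286 in edgeR), and Stmn1 took 0.379, 0.350, 0.511 and 0.414 against 0.529, 0.439, 0.652 and 0.577 (log2 difference -0.48, standard error 0.17, adjusted p = 0.0356 in edgeR). Mcm7 went the other way, at 0.759, 0.604, 0.810 and 0.742 against 0.472, 0.448, 0.575 and 0.531, higher in 4 of 4 areas with no overlap between the classes (log2 difference 0.42, standard error 0.15, adjusted p = 0.0414 in edgeR). Each of these 3 calls was lost in some alternatives. Without any 1 area the adjusted p in edgeR was 0.0921 to 0.116 for Mcm7 and 0.0652 to 0.123 for Stmn1, and for Pcna it was 0.143 without Early and 0.0907 without Advanced 1. Mki67 (log2 difference -0.49, adjusted p = 0.123), Top2a (-0.34, 0.340), Birc5 (-0.59, 0.177), Ube2c (-0.83, 0.0540) and Tyms (-0.25, 0.659) did not pass in edgeR.

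Among other cell cycle genes in B-cell-rich spots, the polymerase subunit Pold1 was the only 1 of 15 replication genes to rise (log2 difference 0.77, standard error 0.13, adjusted p = 1.71e-05 in edgeR), and Tuba1b and Hmgb1 were the only 2 of 21 mitosis genes to fall, by 0.60 and 0.32 on the log2 scale. Btg1 and Foxo1, known from resting lymphocytes, rose by log2 differences of 0.63 and 0.55. Of 13 genes of the cyclin, Cdk, E2f and Rb families, Rbl2 and Cdk2 rose (log2 differences 0.66 and 0.65) and E2f1 and Ccnd2 fell (-1.36 and -0.62). Of 9 macrophage genes 7 fell there, as did 8 of 9 plasma cell genes, and their part in the members' values was not tested. B-cell-rich spots held a median of 2572 to 3579 UMIs per area against 2975 to 6396 in the others.

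T-cell-rich spots leaned towards higher cell cycle levels without a gene that passed. Of 29 members tested, 0 were called in edgeR or DESeq2, where edgeR called 0.614% of all genes higher and 0.380% lower. An unadjusted p below 0.05 was reached by 8 members in edgeR and 2 in DESeq2, and by 1175 of all 10261 genes in edgeR. The log2 difference was positive for 26 of 29 with a median of 0.32, against 0.00 over all genes. Rrm2, a subunit of ribonucleotide reductase, was nearest to the threshold: it took 0.693, 0.251, 0.440 and 0.290 in T-cell-rich spots, against 0.226, 0.147, 0.258 and 0.163 (log2 difference 0.92, standard error 0.23, adjusted p = 0.0516 in edgeR). It was higher in 4 of 4 areas and was named after its values were seen. The summed ratio was 1.69 on WT, 1.13 on Early, 1.26 on Advanced 1 and 1.01 on Advanced 2. Without WT the median was 0.33. For Hmgb2 the largest difference was on WT, where it took 3.06 against 1.63 per 10000 in T-cell-rich and other spots, with 1.18 against 1.08 on Early, 1.66 against 1.48 on Advanced 1 and 1.76 against 1.84 on Advanced 2.

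**Figure D4:**
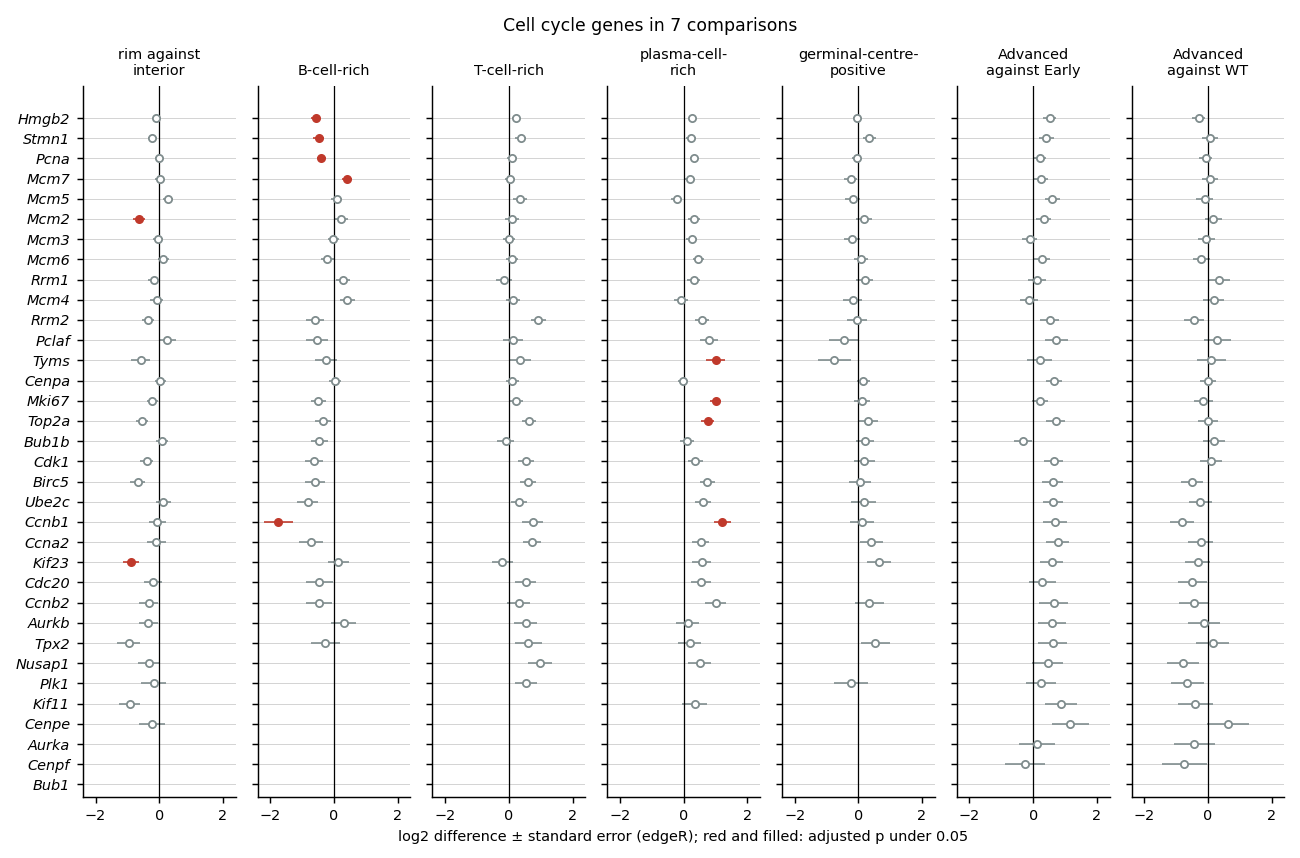
Log2 difference (horizontal axis) with its standard error for each member tested (rows) in 7 comparisons, from edgeR; filled red points have an adjusted p below 0.05. Most points lie right of 0 for plasma-cell-rich spots, T-cell-rich spots and Advanced against Early, and left of 0 for the rim and for B-cell-rich spots.

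No member passed the test in spots with germinal centre transcripts at this depth. Spots with at least 1 UMI of 8 germinal centre genes after thinning numbered 23 on WT, 70 on Early, 54 on Advanced 1 and 65 on Advanced 2. Of 26 members tested, 0 were called in edgeR or DESeq2, where edgeR called 0.0392% of all genes in each direction. An unadjusted p below 0.05 in edgeR was reached by 0 members and by 495 of all 10193 genes. The summed ratio was 0.784 on WT, 1.04 on Early, 1.18 on Advanced 1 and 0.947 on Advanced 2, with no common direction. Positive log2 differences were found for 12 of 13 mitosis genes and 3 of 11 replication genes. Per 10000 UMIs, B-cell genes took 30.0, 58.1, 57.6 and 45.1 in the positive spots against 35.1, 63.0, 54.7 and 48.5. Macrophage genes were higher there on every area, so the class may not stand for germinal centres. Mki67 took 0.275, 0.288, 0.256 and 0.464 in the positive spots against 0.345, 0.269, 0.301 and 0.322. The germinal centre genes together took 1.01 to 1.28 of every 10000 UMIs of an area, so that few spots could be told apart by them.

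Cell cycle transcripts were lower in rim spots than in interior spots. A rim spot has fewer than 6 neighbours under tissue, and rim spots had medians of 2113 to 5541 UMIs against 140.5 to 250.5 for interior spots. Only 84 of 580 interior spots on WT, 222 of 1011 on Early, 387 of 1700 on Advanced 1 and 321 of 1380 on Advanced 2 reached 1000 UMIs. These are positions on the spot grid, and which interior spots lay over intact node tissue was not examined. The summed level at the rim was 9.99 on WT, 7.17 on Early, 9.60 on Advanced 1 and 9.15 on Advanced 2, and in the interior 11.2, 8.40, 10.9 and 11.7. It was lower at the rim in 4 of 4 areas, at 0.783 to 0.889 times the interior level. Of 31 members tested, Mcm2 and Kif23 fell and 0 rose, where edgeR called 3.75% of all genes lower and 4.29% higher. Negative values were found for 24 of the 31, with a median of -0.18 against 0.00 over all genes.

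Kif23, a kinesin of the central spindle, took 0.125, 0.0739, 0.0989 and 0.145 at the rim against 0.375, 0.167, 0.170 and 0.212 inside, with no overlap between the classes (log2 difference -0.89, standard error 0.25, adjusted p = 0.0343 in edgeR). Mcm2 took 0.355, 0.291, 0.427 and 0.325 at the rim against 0.482, 0.532, 0.443 and 0.802, and differed little on Advanced 1 (log2 difference -0.63, standard error 0.18, adjusted p = 0.0356 in edgeR). These calls were weak. Without any 1 area Kif23 had an adjusted p of 0.0762 to 0.150 in edgeR, Mcm2 lost its call without Early (0.191) or Advanced 2 (0.383), and in spots of at least 1000 UMIs the log2 difference of Mcm2 was -0.16. Among other cell cycle genes, 0 of 20 replication genes passed at the rim in edgeR, Ckap2l and H2afz were the only 2 of 25 mitosis genes to fall (log2 differences -1.75 and -0.59), and Cdk4 and Ccnd2 fell as well (-0.53 and -0.52). All 7 fat genes, 4 of 4 red cell genes and 7 of 14 B-cell genes rose at the rim, and 9 of 18 T-cell genes fell; their part in the members' values was not tested.

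**Figure D5:**
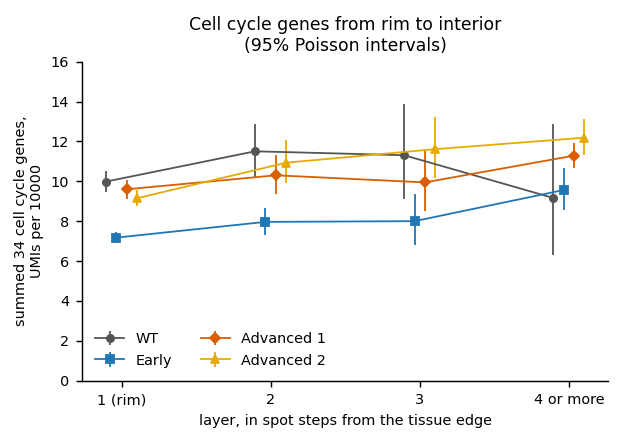
Summed level of the 34 cell cycle genes in UMIs per 10000 (vertical axis) by layer of spots counted from the tissue edge (horizontal axis), 1 line per capture area with 95% Poisson intervals. The rim is the lowest layer on Early, Advanced 1 and Advanced 2, and on WT the deepest layer (9.17, 6.31 to 12.9) overlaps the rim.

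By layer, the level rose on Early from 7.17 at the rim to 9.56 at 4 or more steps inside, on Advanced 1 from 9.60 to 11.3 and on Advanced 2 from 9.15 to 12.2. On WT it was 9.99, 11.5, 11.3 and 9.17 from the rim inwards, where the deepest layer held 33 member UMIs and a median of 49 UMIs per spot. Early lay below the other areas in the outer 3 layers. In the deepest it lay below both Advanced areas, without overlap of the intervals, and overlapped WT.

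Mitosis and replication transcripts were also set against each other. The ratio of mitosis to replication UMIs was 0.858 on WT (95% interval 0.772 to 0.954), 0.644 on Early (0.599 to 0.693), 0.758 on Advanced 1 (0.702 to 0.818) and 0.751 on Advanced 2 (0.693 to 0.814). Early was lowest, with an interval below those of WT and Advanced 1 and just meeting that of Advanced 2. In plasma-cell-rich spots the ratio was 1.03, 0.719, 0.869 and 0.759 on the 4 areas in the same order, against 0.819, 0.624, 0.697 and 0.749 in the other spots. In B-cell-rich spots it was 0.638, 0.629, 0.500 and 0.640, against 0.931, 0.652, 0.811 and 0.786. The ratio was thus higher in plasma-cell-rich spots and lower in B-cell-rich spots in 4 of 4 areas, although on Advanced 2 and on Early, respectively, the values nearly met. The 95% intervals of plasma-cell-rich and other spots overlapped on every area. Those of B-cell-rich and other spots lay apart on Advanced 1 only (0.405 to 0.616 against 0.743 to 0.885).

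To see whether both steps met in the same spots, the 25% of spots with the largest share of the 11 replication genes were compared with the others. The replication genes chose these spots and rose there by construction, from a summed 3.09 to 9.36 per 10000. Of the other 18 members tested, Hmgb2 rose and 0 fell, where edgeR called 0.244% of all genes higher and 0.517% lower; the median log2 difference was 0.36 against 0.00 over all genes. Hmgb2 took 3.91, 1.38, 1.69 and 2.28 of every 10000 UMIs in the rich spots, against 1.41, 1.05, 1.47 and 1.74 (log2 difference 0.53, standard error 0.13, adjusted p = 0.0414 in edgeR). It was higher in 4 of 4 areas and most on WT, without which the log2 difference was 0.28 and the adjusted p 0.300. Mki67 took 0.359, 0.559, 0.324 and 0.523 against 0.333, 0.218, 0.290 and 0.303 (log2 difference 0.66, standard error 0.21, adjusted p = 0.176 in edgeR). The summed mitosis ratio was 1.65, 1.60, 0.882 and 1.28, below 1 on Advanced 1.

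Replication-rich spots were only slightly grouped on the array. Of the neighbours of such spots, 26.5% to 29.2% were replication-rich over the 4 areas, against 22.8% to 25.9% of the neighbours of other spots. For B-cell-rich spots the shares were 43.9% to 66.1% against 7.48% to 15.4%, and for plasma-cell-rich spots 53.8% to 58.2% against 16.2% to 18.1%. Of 7 fat genes, 6 fell in replication-rich spots, and these spots were shallower, with a median of 2373 to 3866.5 UMIs against 3369 to 6396. All 34 genes together took 13.2 to 19.2 of every 10000 UMIs even in replication-rich spots, so that single spots held few such molecules.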

How the data were processed

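The deposited files hold raw UMI counts per gene and spot, which the authors made with Space Ranger 1.1.0 from 10x Visium libraries and restricted to spots under tissue. The members and gene lists were chosen with earlier results of these data known. UMIs were summed per area, or per area and spot class (rim or interior, or, among spots of at least 1000 UMIs, the richest 25% against the rest, or germinal-centre-positive spots after thinning each spot to 1000 UMIs), and levels are UMIs per 10000 with exact 95% Poisson intervals. Spots were not treated as replicates. Tests used edgeR 4.0.16 (TMM, filterByExpr, quasi-likelihood test, Benjamini-Hochberg adjustment over all genes tested) in R 4.3.3: spot classes with area as a block (8 sums), conditions in 1 fit with 3 groups. Members left out by the count filter were Bub1 in every comparison, with 1 to 8 members left out in all. Standard errors of the edgeR log2 differences were derived from the quasi-likelihood test, as the absolute log2 difference divided by the square root of its F statistic. Ratios of mitosis to replication UMIs carry 95% intervals converted from the exact binomial interval of the mitosis share. The same code recovered 89% of 4-fold and 49% of 2-fold changes simulated for Advanced against Early, over 12821 genes. DESeq2 1.42.0, no count filter, other UMI limits, a wider class of rich spots, removal of immunoglobulin genes and removal of single areas were tried as alternatives. Genes were named by rule: Mki67, Top2a, Birc5, Ube2c, Pcna, Tyms, Stmn1 and Hmgb2, and up to 8 further members called per comparison, plus members marked as named after their values were seen. Outside this rule, Ccnb1, Mcm4, Rrm1 and Bub1b were given by area, with the area on which each was highest or lowest. Pseudogenes and paralogs can share reads with members such as Hmgb2, so their counts are uncertain. The 4 arrays carry the same spot barcodes by design, and 1798 array positions were used on more than 1 area. Gene names came from the feature table, and promoters from RefSeq on GRCm38.p6.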

Additional observations from a re-analysis of the deposited data

Results flagged for a closer look

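Some summed levels moved one way in 1 group and the other way in another. None of these differences was tested, since WT and Early had 1 area each. In B-cell-rich against other spots, the log2 difference of all 34 genes was -0.29 on WT, 0.087 for Early, -0.32 for Advanced 1 and -0.19 for Advanced 2, so that Early went against both other groups. For the mitosis genes alone it was -0.47 on WT, 0.13 for Early, -0.62 for Advanced 1 and -0.37 for Advanced 2. On Early the Poisson intervals of B-cell-rich and other spots overlapped for all 34 genes (7.22 to 8.44 against 7.10 to 7.62 per 10000). They also overlapped for the mitosis genes (2.17 to 2.86 against 2.14 to 2.44). In plasma-cell-rich spots the replication genes had -0.086 on WT, 0.27 for Early, 0.044 for Advanced 1 and 0.25 for Advanced 2, so that WT went against the others. On WT the intervals of plasma-cell-rich and other spots overlapped (3.47 to 4.61 against 3.89 to 4.64 per 10000). In germinal-centre-positive spots the log2 difference of all 34 genes was -0.35 on WT and 0.06 on Early, and that of the mitosis genes -0.40 and 0.29, while the Advanced areas lay on both sides of 0. The Early intervals of positive and other spots overlapped for both sums. On WT they lay apart for all 34 genes and overlapped for the mitosis genes.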

How the results depend on the processing

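No member called in the main fits changed sign in any alternative, and no member was called in any alternative of Advanced against Early, Advanced against WT or germinal-centre-positive spots. Counts of called members moved as follows. At the rim, 2 fell in the main fit, 0 in DESeq2, 1 in spots of at least 1000 UMIs, and 0 to 3 when 1 area was left out. In B-cell-rich spots, 1 rose in the main fit and 0 in DESeq2, without a count filter, without immunoglobulin genes, at 500 UMIs, with a wider class of rich spots and when any 1 area was left out; 4 fell, 2 in DESeq2 and 2 to 4 when 1 area was left out. In T-cell-rich spots, 0 rose in the main fit and 1 without a filter, without immunoglobulin genes and at 500 UMIs. In plasma-cell-rich spots, 4 rose, 1 in DESeq2 (which gave no adjusted p for Ccnb1 and Tyms) and 1 to 4 when 1 area was left out, the lowest without Early. In replication-rich spots, 1 rose and 0 in DESeq2, at 2000 UMIs and with a wider class of rich spots. The cause of these shifts was not tested.

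The summed level was 11.2, 8.40, 10.9 and 11.7 per 10000 in the interior of WT, Early, Advanced 1 and Advanced 2, 7.17, 9.60 and 9.15 at the rim of the last 3, and 11.2, 7.79, 10.9 and 10.9 without immunoglobulin genes. In spots thinned to 1000 UMIs, a setting chosen after seeing the data, it was 7.95 on Early and 10.9 on Advanced 1. At the rim alone the Advanced mean was 1.31 times Early and 0.939 times WT. The mitosis to replication ratio in the interior was 0.976, 0.834 and 0.820 on WT, Advanced 1 and Advanced 2, and 0.672 at the rim of Advanced 1. In every one of these settings Early had the lowest summed level. Leaving out an Advanced area gave a ratio to Early of 1.35 to 1.38, but no residual degree of freedom for a gene test. Within B-cell-rich spots, 3 members had enough counts to be tested for the germinal centre genes. No paired analysis was possible because the labels number only the Advanced areas; this holds for the comparisons of conditions, while spot classes were compared with area as a block. Counts of 1 to 22 UMIs per area and spot class limit what can be said of single genes.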
